A study of Saccharomyces cerevisiae with 9 samples.

Results

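The genes TRS31, SFT1, HEM4, FLX1, NVJ2, UBX6, BUD22 and SMC5 are 8 protein-coding genes of the budding yeast Saccharomyces cerevisiae that each start within 500 bp past a small nucleolar RNA (snoRNA) gene on the same strand. They are 8 of the 5928 genes in the table, and all 8 had enough reads to be tested. Their position was not the only criterion: among the 22 genes that start within 500 bp past a snoRNA or spliceosomal snRNA gene, these were selected on their measured log2 fold change in the mutant Pcf11-13 against wild type, which was over 1, with the 3 strongest, CTO1, USE1 and YDR042C, set apart. Values of Pcf11-13 for these genes are therefore given as a description with no test. The libraries of the second mutant, Pcf11-DNL, were not used in the choice, and its comparison with wild type is tested, although the wild type libraries took part in the choice.

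RNA was sequenced from 9 cultures of strain background w303, mating type alpha, with 3 biological replicates in each of 3 groups. In every culture the chromosomal PCF11 gene was deleted with TRP1 (pcf11-delta::TRP1), and a plasmid with LEU2, described as low copy and centromeric and written as pRS325-LEU2, carried the only PCF11 allele: V5-PCF11-MYC in wild type, pcf11-13 in Pcf11-13, and V5-pcf11-deltaN-link-MYC in Pcf11-DNL. No tag is named for the pcf11-13 plasmid. All strains also carry ura3-1, trp1-delta, ade2-1, his3-11,15 and a mutant leu2 allele, which the labels number differently for Pcf11-DNL than for the other groups. Cultures grew in YPAD at 30 °C to an OD600 of 1.0 to 1.2, all with the treatment label glucose although the growth text also mentions caffeine, and poly(A) RNA was read as pairs of 150 bases. The library totals lay between 11372819 and 15906466 expected counts. The first wild type replicate differed from the other 2 by more than they differed from each other (chi-square per degree of freedom of 10.7 and 10.1, against 2.76). Levels are in CPM, counts relative to the scaled library total. PCF11 RNA in wild type had 84.7 ± 3.05 CPM (SD, n = 3), against 648 ± 32.3 CPM for Pcf11-13 and 67.4 ± 2.56 CPM for Pcf11-DNL, so the allele, the tags and the amount of PCF11 RNA cannot be told apart in what follows. Markers of mating type alpha (4 genes) summed to 2051 to 2357 CPM per wild type library, 1464 to 1511 CPM per Pcf11-13 library and 1779 to 1873 CPM per Pcf11-DNL library. Markers of mating type a (7 genes) summed to 41.4 to 43.0, 64.1 to 68.9 and 45.1 to 48.3 CPM in the same order, with MFA2 at 0 in all 9 libraries and MFA1 at 0 in 8. All 4 alpha markers fell in Pcf11-13 and 3 of them fell in Pcf11-DNL, while the 4 tested a markers rose in Pcf11-13. In Pcf11-DNL 0 of those 4 passed by edgeR, DESeq2 or limma-voom, and 1 had an unadjusted p under 0.05. The part of these shifts in the values of the 8 genes was not tested.

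Most yeast snoRNAs are transcribed by RNA polymerase II from genes of their own, and their transcription ends soon after the mature RNA. The RNA-binding proteins Nrd1 and Nab3, with the helicase Sen1, recognise short motifs in the new RNA, release the polymerase and pass the RNA to the exosome for trimming. Pcf11 binds the phosphorylated tail of the polymerase and is needed to end transcription at mRNA genes and at snoRNA genes. A polymerase that is not stopped behind a snoRNA gene can run on into the next gene, which makes genes in that position a common place to look for failed termination, and the SNR13 to TRS31 interval is a classical reporter for it. The counts of this table hold reads per protein-coding gene, the snoRNAs themselves and the stretches between genes were not analysed here, and no source used here says whether counting used strand. A longer RNA that begins upstream and an mRNA from the gene's own promoter therefore give the same kind of count.

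Of the 8 genes, 7 lie behind a snoRNA of the C/D class, which guides methylation of ribosomal RNA, and HEM4 lies behind SNR5 of the H/ACA class, which guides pseudouridylation. The distance from the end of the snoRNA gene to the start codon was 148 bp for FLX1, 210 for HEM4, 216 for BUD22, 231 for NVJ2, 279 for TRS31, 344 for SMC5, 397 for SFT1 and 492 for UBX6. SNR72, ahead of BUD22, is the last of 7 snoRNA genes in a row and SNR51, ahead of NVJ2, the last of 3, while the other 6 genes follow a single snoRNA gene. In the UBX6 interval the annotation places a small reading frame on the same strand, YJL047C-A, which had no counts in any library. No annotated protein-coding gene overlaps any of the 8.

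The first 100 bases past the snoRNA gene, where Nrd1 and Nab3 are known to act, are shown for the 4 genes that mark the ends of the results below. These are HEM4 with the highest fold in Pcf11-13, BUD22 with the lowest, FLX1 as the one that rose in Pcf11-DNL and TRS31 as the one that fell there. Each is written on the strand of the gene from the reference genome R64 (the build also called sacCer3). Capitals mark GTAG and GTAA, the letters bound by Nrd1, and TCTT, letters bound by Nab3, with T for U. The stretches are chrXV:842607-842706, chrXIII:298652-298751, chrIX:97247-97346 and chrIV:1403043-1403142, all on the plus strand and free of annotated protein-coding genes.
HEM4, past SNR5: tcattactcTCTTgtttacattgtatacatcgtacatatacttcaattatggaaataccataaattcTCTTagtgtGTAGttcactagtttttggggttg
BUD22, past SNR72: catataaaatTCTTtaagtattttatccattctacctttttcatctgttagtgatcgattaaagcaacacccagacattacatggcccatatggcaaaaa
FLX1, past SNR68: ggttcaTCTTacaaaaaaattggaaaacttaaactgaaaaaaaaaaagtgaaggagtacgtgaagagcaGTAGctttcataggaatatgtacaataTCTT
TRS31, past SNR13: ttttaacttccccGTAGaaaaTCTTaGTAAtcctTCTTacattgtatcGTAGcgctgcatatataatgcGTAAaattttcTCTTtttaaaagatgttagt

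In these stretches TRS31 had 4 matches to the Nrd1 letters and 3 to TCTT, HEM4 and FLX1 each had 1 and 2, and BUD22 had 0 and 1. Over the whole interval up to the start codon, 7 of the 8 genes had GTAG or GTAA on the gene's strand and all 8 had TCTT. Of all promoters of the same lengths, 69.0 to 97% hold GTAG or GTAA and 58.1 to 96.4% hold TCTT. CTO1, USE1 and YDR042C and the 11 other genes within 500 bp all had both. TRS31 held 6 matches to the Nrd1 letters, a number that 2.75% of all yeast promoters of the same length reach. Among the other genes within 500 bp, UBA1 also held 6 (reached by 1.87%), and PDX3 and SDD3 held 5 each (4.15% and 5.3%). BUD22 held none, where 80.3% of promoters of that length hold at least 1. For TCTT, FLX1 had 4 matches, reached by 4.25% of promoters of its length, NVJ2 had 5, reached by 6.47%, and the other 6 genes had numbers reached by 23.5 to 77.2%. Outside the 8, YDR042C had 10, reached by 0.983%. GTAG and GTAA can share a base with each other, and each match was counted. On the opposite strand, 8 of 8 intervals held the Nrd1 letters and 7 of 8 held TCTT. There 64.4 to 97.2% and 76.8 to 97.0% of promoters of the same lengths hold them. The median density on the gene's strand was 1.28 matches to the Nrd1 letters per 100 bp for the 8 genes, 1.04 for CTO1, USE1 and YDR042C, and 0.971 for the 11 remaining genes within 500 bp. For TCTT the medians were 1.19, 2.07 and 1.06 per 100 bp. TTACCCG, the core of the site of the termination factor Reb1, was found in none of the 8 intervals on either strand. Only 1.32 to 5.2% of promoters of the same lengths hold it on a given strand. The A+T share ran from 60.2 to 66.7%, with a median of 65.1%.

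**Figure D1:**
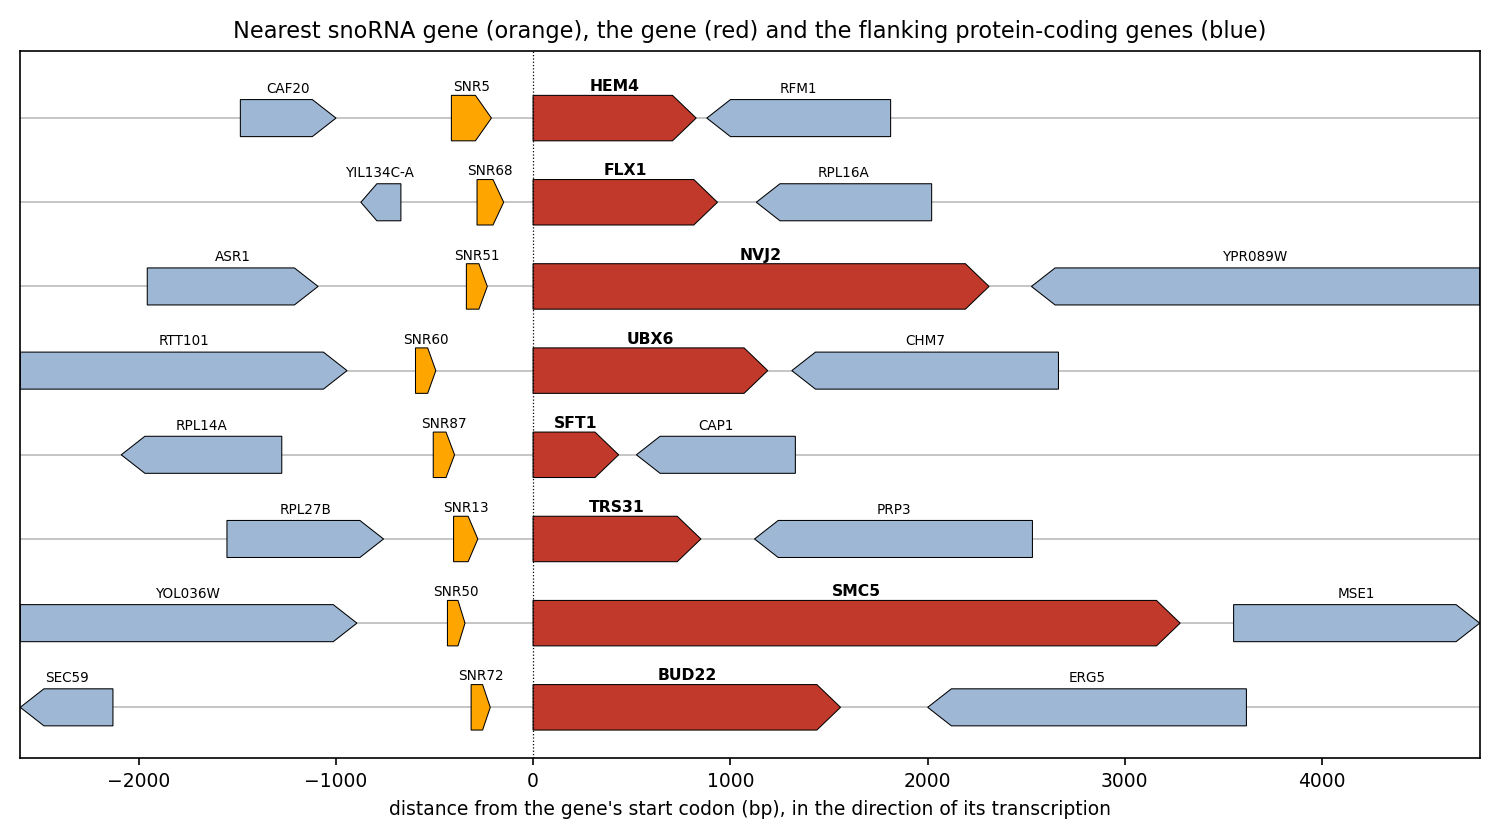
Map of the 8 loci, drawn to scale in bp from the start codon and in the direction of transcription, with the nearest snoRNA gene in orange, the gene in red and the flanking protein-coding genes in blue (genes that run past the edge are cut). The snoRNA gene ends 148 to 492 bp before each gene, and 7 of the 8 next genes point back towards it.

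In Pcf11-13 the RNA of all 8 genes was higher than in wild type in every library, from 7.12-fold for HEM4 down to 2.03-fold for BUD22. The libraries of the 2 groups overlapped for none of the 8. Over all 5646 genes tested, 37% stood higher in Pcf11-13 without overlap, 5.35% had a log2 fold change over 1, 35.2% rose and 30.9% fell by the edgeR quasi-likelihood test at an adjusted p of 0.05. Since this contrast chose the genes, nothing is read from their count. Just inside the threshold lay BUD22 at a log2 fold change of 1.02, and just outside it, within 500 bp, lay SEN2 at 0.70, GAL11 at 0.56 and UBA1 at 0.54. At the upper end HEM4, at 2.83, was followed by YDR042C at 3.89, USE1 at 4.02 and CTO1 at 4.34. In Pcf11-DNL only FLX1 rose and only TRS31 fell by the same test, and the other 6 did not pass, against 8.73% of all genes that rose and 4.3% that fell.

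HEM4 and FLX1 serve the supply of cofactors. HEM4 (YOR278W; chromosome XV, 842817 to 843644, plus strand) encodes uroporphyrinogen III synthase of the heme pathway. It stood at 26.4, 25.7 and 27.9 CPM in wild type, 186, 193.6 and 190.8 CPM in Pcf11-13, and 28.0, 30.1 and 28.0 CPM in Pcf11-DNL. The 3 Pcf11-13 libraries were far above all others, and the Pcf11-DNL libraries sat just above the highest wild type library. The log2 fold change was 2.83 ± 0.05 (SE) in Pcf11-13, the highest of the 8. In Pcf11-DNL it was 0.10 ± 0.06, with a 95% interval of -0.02 to 0.23 and an edgeR adjusted p of 0.26. FLX1 (YIL134W; chromosome IX, 97395 to 98330, plus strand) encodes the carrier that moves flavin nucleotides across the inner mitochondrial membrane. Its levels were 28.5, 27.5 and 33.3 CPM in wild type, 127.6, 133.3 and 128.5 CPM in Pcf11-13, and 48.2, 42.0 and 43.1 CPM in Pcf11-DNL. The 3 groups did not overlap, and Pcf11-DNL lay between the other two. Its log2 fold change in Pcf11-13 was 2.12 ± 0.07. In Pcf11-DNL it was 0.57 ± 0.07, or 1.49-fold (95% interval of the log2 value 0.42 to 0.73, edgeR adjusted p = 6.97e-05), with all 3 libraries above all 3 of wild type.

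TRS31 and SFT1 act in membrane traffic around the Golgi. TRS31 (YDR472W; chromosome IV, 1403322 to 1404173, plus strand) encodes a core subunit of the TRAPP complexes, which activate Rab GTPases on transport vesicles. It stood at 60.0, 56.9 and 59.6 CPM in wild type, 134.2, 137.4 and 132.6 CPM in Pcf11-13, and 45.6, 40.2 and 40.5 CPM in Pcf11-DNL. Every Pcf11-13 library was above wild type and every Pcf11-DNL library was below it, so the mutants lay on opposite sides. In Pcf11-13 the log2 fold change was 1.20 ± 0.05. In Pcf11-DNL TRS31 fell by 0.48 ± 0.06 on the log2 scale, to 0.717 of the wild type level (95% interval -0.60 to -0.36, edgeR adjusted p = 2.75e-05). SFT1 (YKL006C-A; chromosome XI, 430198 to 430632, minus strand, with an intron) encodes a SNARE for transport within the Golgi. It was the gene with the fewest reads of the 8, at 91 to 131 counts per wild type library. Its levels were 8.07, 8.40 and 8.59 CPM in wild type, 20.6, 20.3 and 18.5 CPM in Pcf11-13, and 9.57, 9.41 and 9.99 CPM in Pcf11-DNL. All Pcf11-13 libraries were well above the rest, and the Pcf11-DNL libraries lay just above those of wild type. The log2 fold change was 1.24 ± 0.10 in Pcf11-13 and 0.21 ± 0.10 in Pcf11-DNL (95% interval -0.02 to 0.43, edgeR adjusted p = 0.208).

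NVJ2 (YPR091C; chromosome XVI, 716156 to 718468, minus strand) encodes a lipid-binding protein of the endoplasmic reticulum that concentrates at contacts between nucleus and vacuole. It stood at 86.7, 89.1 and 89.8 CPM in wild type, 354.7, 355.4 and 339 CPM in Pcf11-13, and 98.4, 90.0 and 93.0 CPM in Pcf11-DNL. The Pcf11-13 libraries were far above the rest, and the lowest Pcf11-DNL library was barely above the highest of wild type. On the log2 scale the change was 1.98 ± 0.05 in Pcf11-13 and 0.08 ± 0.05 in Pcf11-DNL (95% interval -0.02 to 0.18, edgeR adjusted p = 0.261). UBX6 (YJL048C; chromosome X, 347447 to 348637, minus strand) encodes a UBX-domain protein that binds the Cdc48 ATPase. Its levels were 91.2, 99.4 and 96.3 CPM in wild type, 292, 279.8 and 277 CPM in Pcf11-13, and 103, 107 and 106 CPM in Pcf11-DNL. No group overlapped another, with Pcf11-DNL only slightly above wild type. UBX6 had a log2 fold change of 1.56 ± 0.04 in Pcf11-13. In Pcf11-DNL it was 0.14 ± 0.05, with an unadjusted 95% interval of 0.04 to 0.24 and an edgeR adjusted p of 0.0607, which misses the threshold.

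SMC5 and BUD22 act in the nucleus. SMC5 (YOL034W; chromosome XV, 259923 to 263204, plus strand) encodes a subunit of the Smc5/6 complex, which keeps chromosomes intact during replication and repair. It stood at 63.5, 60.4 and 62.8 CPM in wild type, 144, 143.7 and 133 CPM in Pcf11-13, and 64.2, 64.8 and 69.6 CPM in Pcf11-DNL. The Pcf11-DNL libraries sat just above those of wild type. The log2 fold change was 1.17 ± 0.05 in Pcf11-13 and 0.09 ± 0.05 in Pcf11-DNL (95% interval -0.02 to 0.20, edgeR adjusted p = 0.277). BUD22 (YMR014W; chromosome XIII, 298868 to 300427, plus strand) encodes a nucleolar protein needed to mature the RNA of the small ribosomal subunit. Its levels were 248, 221 and 229 CPM in wild type, 493, 471 and 450.0 CPM in Pcf11-13, and 229, 226 and 228 CPM in Pcf11-DNL. It was the one gene whose Pcf11-DNL libraries lay within the range of wild type. On the log2 scale the change was 1.02 ± 0.05 in Pcf11-13 and -0.03 ± 0.05 in Pcf11-DNL (95% interval -0.14 to 0.07, edgeR adjusted p = 0.707).

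**Figure D2:**
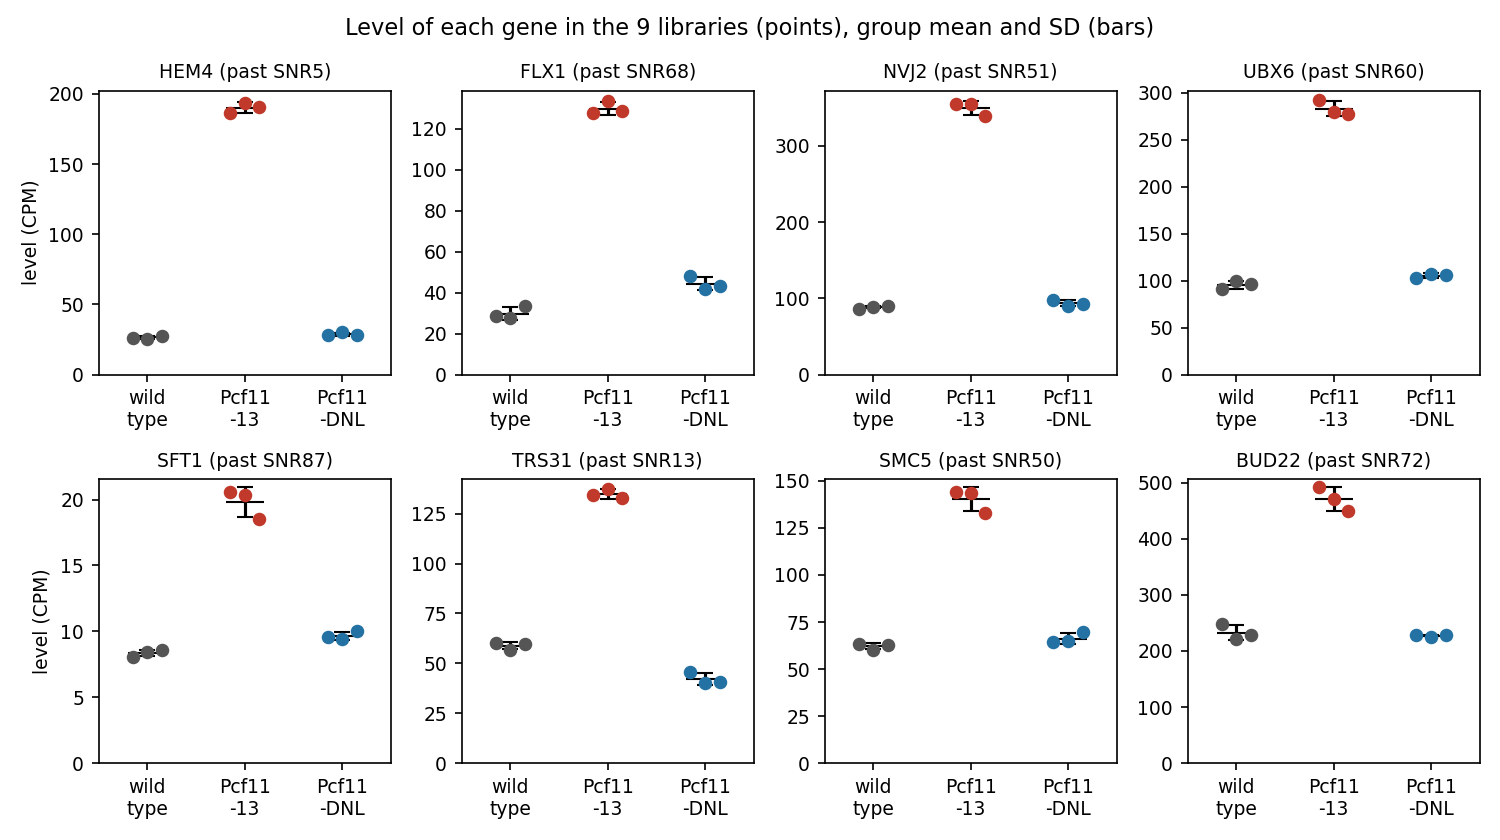
Level of each of the 8 genes in CPM (vertical axes start at 0) in the 9 libraries, as points, with the mean and SD of the 3 libraries of each group as bars. The Pcf11-13 points stand above all others in every panel, while the Pcf11-DNL points lie near wild type except for FLX1, which is higher, and TRS31, which is lower.

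Pcf11-DNL stood below Pcf11-13 for all 8 genes, with no overlap of libraries, where 34.1% of all genes tested did so. The level in Pcf11-DNL was 0.151 of that in Pcf11-13 for HEM4, 0.268 for NVJ2, 0.313 for TRS31, 0.343 for FLX1, 0.373 for UBX6, 0.471 for SMC5, 0.482 for BUD22 and 0.487 for SFT1, again as a description. The order of the genes thus differed from that in Pcf11-13 against wild type: NVJ2 and TRS31 came before FLX1, and SFT1 came last. Against wild type, 6 of the 8 genes were higher in Pcf11-DNL without overlap (HEM4, FLX1, NVJ2, UBX6, SFT1 and SMC5) and TRS31 was lower without overlap, where 17% and 15.8% of all genes tested were. Of these 6, only FLX1 passed the test. The median log2 fold change of the 8 was 1.40 in Pcf11-13 and 0.10 in Pcf11-DNL, both against the same wild type libraries, and -1.48 in Pcf11-DNL against Pcf11-13. The medians of all genes tested were 0.032, 0.00063 and -0.017. Scaling by library totals moved the all-gene median of Pcf11-13 to 0.245 and that of Pcf11-DNL to 0.0509. It changed the calls over all genes from 1988 higher and 1744 lower to 3372 and 861 in Pcf11-13, and from 493 and 243 to 728 and 124 in Pcf11-DNL.

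The other genes that start within 500 bp past a snoRNA or snRNA gene moved both ways. CTO1, USE1 and YDR042C had log2 fold changes of 2.05, 1.68 and 1.71 in Pcf11-DNL, each higher than that of any of the 8. Of all 22 genes within 500 bp, 16 rose and 6 fell in Pcf11-13 (median 0.86). The 11 remaining genes are those left after every gene with a log2 fold change over 1 there was taken out. Of these 11, 5 rose and 6 fell in Pcf11-13 (median -0.12), and nothing is read from that split. In Pcf11-DNL 0 rose, 6 fell and 5 did not pass (median -0.17), by the same edgeR test. At an unadjusted p under 0.05, 0 were higher and 8 were lower, and DESeq2 and limma-voom also called 0 higher. The 6 were DFR1 (-0.42), RPS14A (-0.32), SDD3 (-0.26), YTM1 (-0.25), UBA1 (-0.19) and RPL7A (-0.17). TRS31, at -0.48 in Pcf11-DNL, lay below all 11 of them. The 12 genes that start 500 to 1000 bp past such a gene had medians of -0.02 in Pcf11-13, with 4 higher and 5 lower, and of -0.04 in Pcf11-DNL, with 1 higher and 3 lower. Distance from the snoRNA gene and log2 fold change were weakly related across the 22 genes within 500 bp, with Pearson's r of -0.195 and Spearman's rho of -0.221 in Pcf11-13, and -0.0911 and -0.0853 in Pcf11-DNL. Among the 8, r was -0.433 and rho -0.405 in Pcf11-13, and -0.138 and 0 in Pcf11-DNL. These points share their libraries and are a description without a test. FLX1, with the shortest interval, had the second highest fold change of the 8, and UBX6, with the longest, was followed by 4 genes with lower ones.

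**Figure D3:**
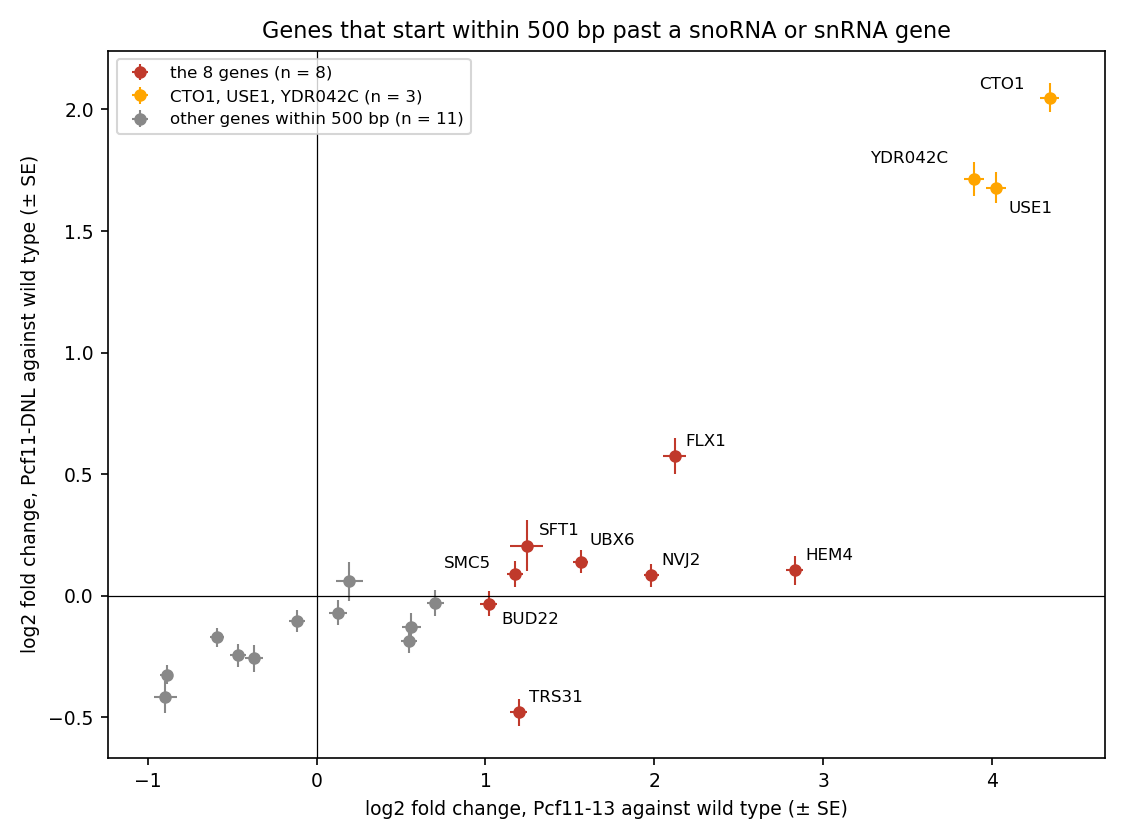
Log2 fold change against wild type in Pcf11-13 (horizontal) and Pcf11-DNL (vertical), each ± SE, for the 22 genes that start within 500 bp past a snoRNA or snRNA gene: the 8 genes in red, CTO1, USE1 and YDR042C in orange and 11 others in grey. The red points span 1.02 to 2.83 on the horizontal axis and -0.48 to 0.57 on the vertical axis, with FLX1 highest and TRS31 lowest, and both axes share the wild type libraries.

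Per length, the 8 genes spanned a wide range of levels. In wild type they ran from 19.0 CPM per kb of coding sequence for SMC5 to 149 for BUD22. Between these lay SFT1 at 28.4, FLX1 at 31.8, HEM4 at 32.2, NVJ2 at 38.3, TRS31 at 69.0 and UBX6 at 80.3 CPM per kb. Of the neighbours in this order, only FLX1 and HEM4 had libraries that overlapped. Among the genes tested SMC5 stood at percentile 22.1 and BUD22 at percentile 82.1 of this level. In Pcf11-13 the level per kb was 302 for BUD22, 238 for UBX6, 229.6 for HEM4, 158 for TRS31, 151 for NVJ2, 139 for FLX1, 67.4 for SFT1 and 42.7 for SMC5. HEM4 thus passed from percentile 39.2 to 89.9, and SMC5 reached 47.3. HEM4 and UBX6 then overlapped, while the other neighbours in the order did not. The difference in level per kb between Pcf11-13 and wild type was 197 for HEM4, 157 for UBX6, 153 for BUD22, 113 for NVJ2, 107 for FLX1, 89.1 for TRS31, 39.0 for SFT1 and 23.8 for SMC5. BUD22, with the lowest fold, thus had the third largest difference in level. In Pcf11-DNL the difference in level per kb from wild type was 15.7 for FLX1 and -19.6 for TRS31, and 8.24 or less in size for the other 6. FLX1 at 47.5 and TRS31 at 49.4 CPM per kb then overlapped, as did HEM4 at 34.7 and SFT1 at 32.9.

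**Figure D4:**
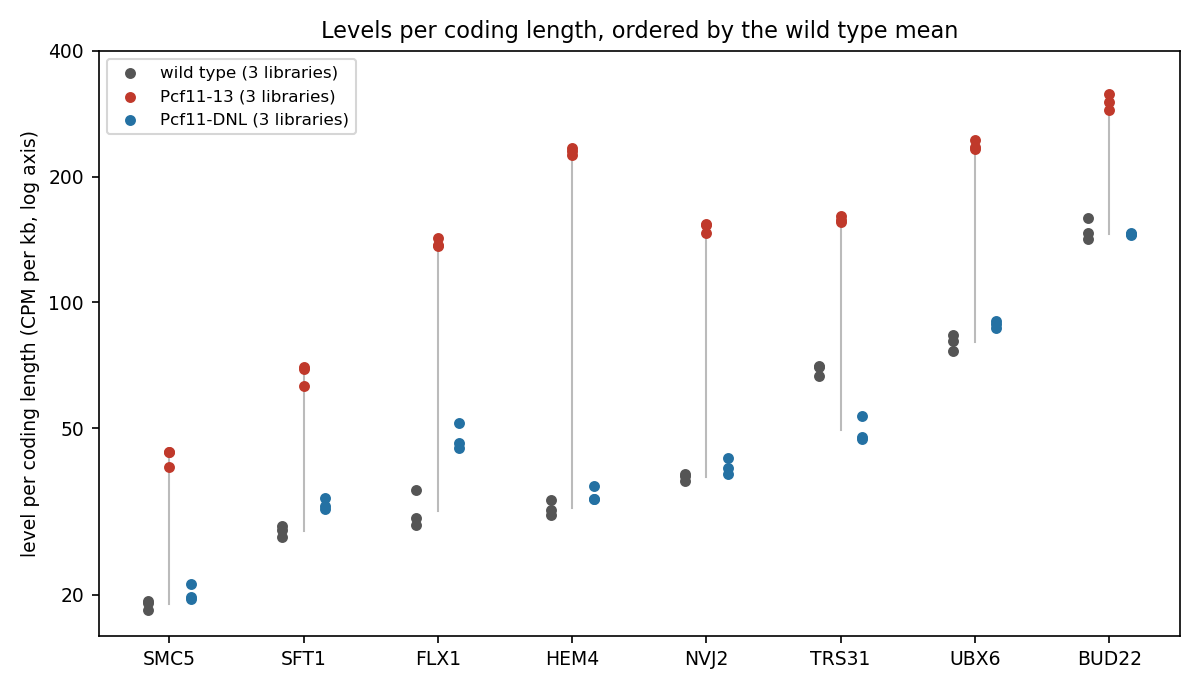
Level per kb of coding sequence (CPM per kb, log axis) of the 8 genes in the 9 libraries, ordered by the wild type mean, with grey lines that join the group means. Wild type means run from 19.0 for SMC5 to 149 for BUD22, and HEM4 reaches 229.6 in Pcf11-13.

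The genes on either side of the 8 moved in both directions. Since the 8 were chosen on their rise in Pcf11-13, nothing is read from their larger values there. The next gene past the 3' end lies on the opposite strand at 7 of the 8 loci, and only MSE1, behind SMC5, lies on the same strand. In Pcf11-13, 2 of these 8 next genes rose, 3 fell and 3 did not pass (median log2 fold change -0.03), by the edgeR test over all genes. CHM7, an ESCRT protein of the nuclear envelope that ends 121 bp past UBX6, rose by 0.43 ± 0.07 (31.4 ± 2.48 to 42.2 ± 2.44 CPM, adjusted p = 8.24e-05). PRP3, a splicing factor that ends 271 bp past TRS31, rose by 0.17 ± 0.06 (42.0 ± 1.67 to 47.3 ± 1.44 CPM, edgeR adjusted p = 0.0157). That call was lost without wild type replicate 2 (edgeR adjusted p = 0.0752), without Pcf11-13 replicate 1 (0.0554) and with the DESeq2 Wald test (0.0766). RPL16A, a ribosomal protein gene past FLX1, fell by 0.65 ± 0.04 (edgeR adjusted p = 5.89e-10). YPR089W, past NVJ2, fell by 0.23 ± 0.05 (edgeR adjusted p = 0.000374), and ERG5, a sterol desaturase gene past BUD22, fell by 0.14 ± 0.04 (0.00853). RFM1, 53 bp past HEM4, had -0.15 (edgeR adjusted p = 0.144), CAP1, 89 bp past SFT1, had 0.09 (0.155), and MSE1 had 0.09 (0.269). With scaling by library totals, which moves the median of all genes upward, ERG5 turned to 0.08 and RFM1 to 0.06. YPR089W no longer passed there (-0.01, edgeR adjusted p = 0.7785), while CAP1 (0.30, edgeR adjusted p = 0.000302) and MSE1 (0.30, 0.00177) did. In Pcf11-DNL 0 of the 8 next genes rose by edgeR, DESeq2 or limma-voom. At an unadjusted p under 0.05, 0 were higher and 3 were lower. ERG5 fell by 0.21 there (edgeR adjusted p = 0.00286) and the other 7 did not pass.

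Of the 8 genes that precede the snoRNA genes, 7 had enough reads. In Pcf11-13, 2 rose, 3 fell and 2 did not pass, with a median of 0.01. ASR1, a ubiquitin ligase gene before the 3 snoRNA genes ahead of NVJ2, rose by 0.44 (edgeR adjusted p = 0.00061). SEC59, the dolichol kinase gene before the 7 snoRNA genes ahead of BUD22, rose by 0.36 (edgeR adjusted p = 4.08e-05). RPL27B before SNR13 fell by 0.56 (edgeR adjusted p = 8.96e-08), CAF20 before SNR5 fell by 0.45 (1.19e-07) and RPL14A before SNR87 fell by 0.37 (3.77e-07). RTT101 before SNR60 had 0.09 (edgeR adjusted p = 0.154) and YOL036W before SNR50 had 0.01 (0.851). In Pcf11-DNL 0 of the 7 passed the edgeR test (smallest adjusted p 0.0628), the DESeq2 Wald test or limma-voom, and 2 had an unadjusted p under 0.05, both higher. Because strand was not given, reads from RNA that runs past the end of one of 2 convergent genes into the other cannot be assigned to a strand.

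**Figure D5:**
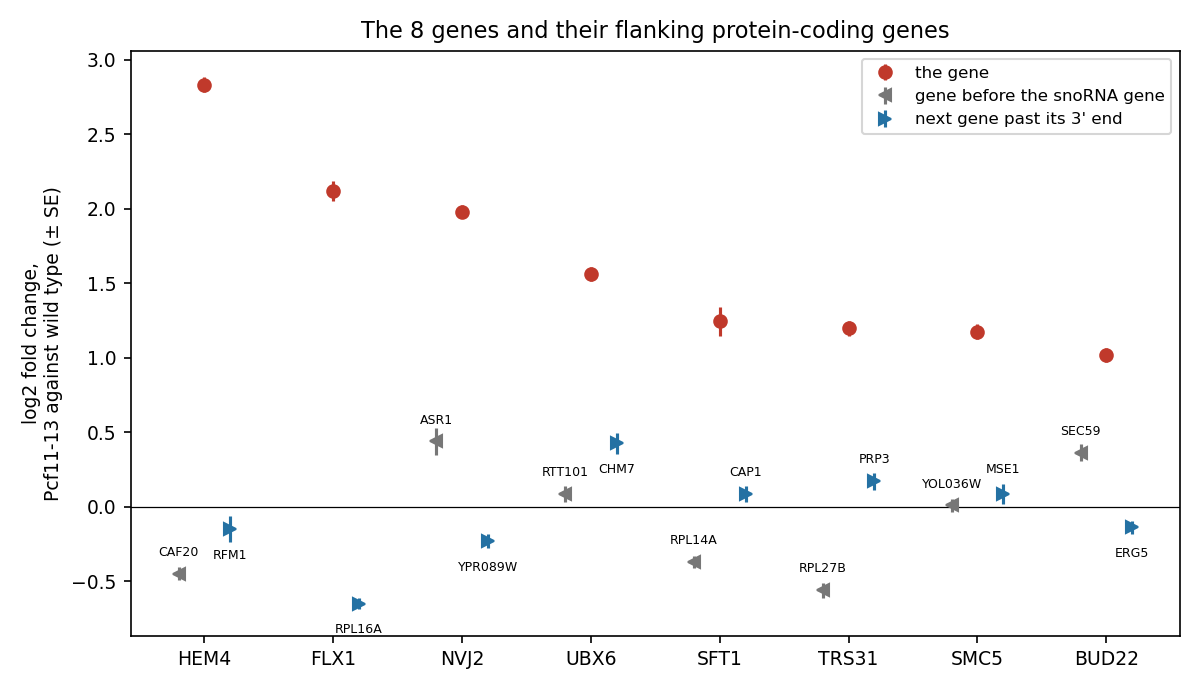
Log2 fold change of Pcf11-13 against wild type (± SE) for the 8 genes (red circles), the next gene past each (blue triangles) and the gene before each snoRNA gene (grey triangles; YIL134C-A, before SNR68, was not tested). The 8 genes, which were chosen on this contrast, lie between 1.02 and 2.83, and the flanking genes between -0.65 and 0.44.

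Genes that work with the 8 but do not lie behind a snoRNA gene were listed by function, each list counted without its own member, by the edgeR test over all genes. Values of the 8 in Pcf11-13 beside these lists are a description, since that contrast chose them. In Pcf11-13 the 7 other genes of heme synthesis had 1 that rose, 3 that fell and 3 that did not pass (median -0.05). HEM1, the first enzyme, fell by 0.46 (edgeR adjusted p = 2.81e-05) and HEM13, coproporphyrinogen oxidase, fell by 0.39 (0.000111), while HEM4 stood 2.83 higher. In Pcf11-DNL 0 of the 7 passed by edgeR, DESeq2 or limma-voom, and 1 had an unadjusted p under 0.05. Of 8 genes for riboflavin and flavin nucleotides, 3 rose, 2 fell and 3 did not pass (median 0.09). RIB5, riboflavin synthase, rose by 0.58 in Pcf11-13 (edgeR adjusted p = 6.62e-08) and by 0.30 in Pcf11-DNL (0.000971), and RIB1, the first enzyme of that pathway, rose by 0.34 in Pcf11-13 (5.86e-05). RIB5 was the only one of these 8 that passed in Pcf11-DNL, where FLX1 rose by 0.57.

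In Pcf11-13 the 10 other TRAPP subunit genes had 4 that rose, 1 that fell and 5 that did not pass (median 0.08). TCA17 rose by 0.37 (edgeR adjusted p = 0.000261) and BET3 by 0.29 (0.000348). In Pcf11-DNL, where TRS31 fell, TCA17 rose by 0.29 (edgeR adjusted p = 0.014) and the other 9 did not pass. Of 9 other Golgi SNARE genes, Pcf11-13 had 3 that rose, 2 that fell and 4 that did not pass (median 0.10). VTI1 rose by 0.57 (edgeR adjusted p = 2.94e-06) and YKT6 fell by 0.24 (0.0019). In Pcf11-DNL 0 of the 9 passed by edgeR, DESeq2 or limma-voom, or had an unadjusted p under 0.05.

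For 8 other genes of the junction between nucleus and vacuole, Pcf11-13 had 5 that rose, 2 that fell and 1 that did not pass (median 0.15). VAC8, the vacuolar anchor of the junction, rose by 0.50 (edgeR adjusted p = 6.03e-07) and LAM6, a sterol transfer protein gene, by 0.34 (7.19e-05). Among 9 other genes of UBX proteins and Cdc48, 5 rose, 1 fell and 3 did not pass (median 0.29). The Cdc48 cofactor genes NPL4 and UFD1 rose by 0.54 (edgeR adjusted p = 3.33e-08) and 0.52 (2.2e-05). In Pcf11-DNL 0 genes of either list passed by edgeR, DESeq2 or limma-voom, and each list had 1 gene with an unadjusted p under 0.05.

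Of 7 other genes of the Smc5/6 complex, NSE1 rose by 0.17 (edgeR adjusted p = 0.00519) in Pcf11-13 and the other 6 did not pass (median 0.06), while SMC5 stood 1.17 higher. In Pcf11-DNL 0 of the 7 passed by edgeR, DESeq2 or limma-voom, and 1 had an unadjusted p under 0.05. All 15 other small subunit assembly factors fell in Pcf11-13, with log2 fold changes from -0.72 to -0.16 and a median of -0.56. BUD22, chosen on its rise there, stood 1.02 higher. UTP8 fell by 0.72 (edgeR adjusted p = 8.04e-09) and the RNA helicase gene ROK1 fell by 0.58 (1.96e-07). In Pcf11-DNL the 15 had log2 fold changes from -0.20 to -0.0083, with a median of -0.097, and 6 were lower at an unadjusted p under 0.05. Of the 15 only UTP15, which fell by 0.20, passed by edgeR (adjusted p = 0.00453), and the DESeq2 Wald test called 2.

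Among 16 genes whose products form snoRNA 3' ends, Pcf11-13 had 5 that rose, 5 that fell and 6 that did not pass (median -0.02), and Pcf11-DNL had 4 that rose, 2 that fell and 10 that did not pass (median 0.08). PCF11 rose by 2.93 in Pcf11-13 (edgeR adjusted p = 1.56e-16). REF2, a subunit of the APT part of the cleavage factor with a known role at snoRNA ends, rose by 1.15 in Pcf11-13 (edgeR adjusted p = 6.68e-12) and by 0.96 in Pcf11-DNL (8.69e-10). PTI1, another APT subunit, rose by 0.43 in Pcf11-DNL (edgeR adjusted p = 9.23e-05).

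The 5 genes whose pattern over the 9 libraries was most like the mean of the 8 do not lie within 500 bp past a snoRNA gene. Nothing is read from this, since the 8 were left out of the ranking. Besides them, only CTO1, USE1 and YDR042C within 500 bp had a log2 fold change over 1 in Pcf11-13. Likeness was measured as Pearson's r between log2 CPM and the mean of the centred log2 CPM of the 8, over 5364 other genes whose mean level reached 5 CPM. The 5 highest were ADE17 (r = 0.997), a purine synthesis gene, YDL199C (0.997), the kinase gene KDX1 (0.997), the transcription factor gene ADR1 (0.997) and the amino acid permease gene GAP1 (0.997). In ADE17 the means were 25.0 ± 0.749 CPM for wild type, 84.0 ± 1.29 CPM for Pcf11-13 and 27.2 ± 2.42 CPM for Pcf11-DNL (SD, n = 3). In all, 38 of the genes compared had r over 0.99, and the 9 libraries fall into 3 groups, so r mostly reflects the difference between Pcf11-13 and the other groups.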

How the data were processed

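The authors deposited 1 table of expected counts per gene, the estimated read numbers that RSEM writes, without normalization. RSEM 1.3 and STAR 2.6.1b, with FastQC, Trimmomatic 0.38, DESeq2 1.26.0 and the build sacCer3, are named in the submitters' processing notes. Not given in the sources used here are the annotation, the tools' settings and whether counting used strand. Of the deposited values 10.8% were not whole. Each of its 9 columns is a library and entered the analysis on its own.

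Expected counts were rounded, and edgeR 4.0.16 was run on them in R 4.3.3. Of 5928 genes, filterByExpr (minimum count 10) kept 5646 and removed 282. Libraries were scaled by TMM, 1 model over the 9 libraries with group as its term was fitted, and pairs of groups were compared with the two-sided quasi-likelihood F test. The Benjamini-Hochberg method adjusted p-values over every gene tested, and 0.05 was the threshold. Genes varied between replicates with a biological coefficient of variation of 4.59%. Levels are CPM on the TMM-scaled totals. The intervals of 95% are for a gene on its own. Nothing beyond the term biological replicate says how cultures were separated, so p-values measure the spread between these samples. The pipeline was tested on simulated data.

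Positions, intervals and sequences come from the R64 reference, matched by systematic name for 5919 genes, and gene lists by symbol or synonym. The members, lists and tests were chosen with earlier results of these data known. Named genes are the 8 genes, their flanking genes, up to 2 genes per list with the smallest adjusted p in each mutant among those past the threshold, the genes just inside and outside the range of fold change, and the 5 genes most like the mean of the 8. The 6 genes within 500 bp that fell in Pcf11-DNL, and GAL11, UBA1, PDX3 and the 3 strongest genes, were named after their values were seen.

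Alternatives were scaling by library totals or DESeq2 size factors, limma-voom (limma 3.58.1), the Wald test of DESeq2 1.42.0, a minimum mean of 5 CPM or no minimum, a replicate block, a fit to only the groups compared, and leaving out each library.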

Additional observations from a re-analysis of the deposited data

Results flagged for a closer look

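TRS31 lay on opposite sides of wild type in the 2 mutants, with a log2 fold change of 1.20 in Pcf11-13 and -0.48 in Pcf11-DNL, and every library of each mutant was on its side of all 3 wild type libraries. It was the only one of the 8 genes of which this holds. Its side in Pcf11-13 was fixed by the choice. In Pcf11-DNL, 15.8% of all genes tested lay below wild type without overlap, so nothing is read from this count. The difference between the mutants was not tested, since the value in Pcf11-13 chose the gene.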

How the results depend on the processing

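FLX1 rose and TRS31 fell in Pcf11-DNL under every alternative run. FLX1 had log2 fold changes of 0.51 to 0.67 when each library was left out, and TRS31 of -0.54 to -0.45. Scaling by library totals moved the median of the 8 genes to 1.62 in Pcf11-13 and to -1.65 in Pcf11-DNL against Pcf11-13, gave 2 genes that rose in Pcf11-DNL (UBX6 added, 0.19, edgeR adjusted p = 0.0176), and gave 4 next genes that rose and 1 that fell in Pcf11-13, with the median of all genes at 0.245. The same scaling turned ERG5 to 0.077 and RFM1 to 0.063 in Pcf11-13, and BUD22 to 0.019 and MSE1 to 0.035 in Pcf11-DNL. With the DESeq2 Wald test 1 next gene rose in Pcf11-13, and with DESeq2 size factors 2 next genes fell in Pcf11-DNL (YPR089W added, -0.15, edgeR adjusted p = 0.0406). With each library left out, 1 to 2 next genes rose in Pcf11-13 and 1 to 2 fell in Pcf11-DNL (2 without wild type replicate 1, where CAP1 had -0.19 and an edgeR adjusted p of 0.0306). In Pcf11-DNL the values that changed sign that way were those of BUD22 (-0.067 to 0.014), RFM1 (-0.011 to 0.15) and MSE1 (-0.069 to 0.059). The causes were not tested. Over all genes, 243 fell in Pcf11-DNL, against 155 in a fit of the compared groups alone, 124 with library totals, and 143, 134 and 129 without its replicates 1, 2 and 3.

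Between Pcf11-13 and wild type, libraries with the same number had residual correlations of 0.322, 0.207 and 0.0816, and every library correlated best with its own number, a hint from the data and not from the design. Those of Pcf11-DNL and wild type were 0.001, 0.136 and 0.0341, so the numbers were not taken to pair the samples. With the replicate block the median of the 8 was 1.40 in Pcf11-13 and 0.10 in Pcf11-DNL, with 1 gene higher and 1 lower in Pcf11-DNL as before. Over all genes, Pcf11-13 then had 2025 higher and 1779 lower calls and Pcf11-DNL had 527 and 320, or 416 and 164 within the compared groups. SFT1 is the gene of the 8 that depth limits most, with an SE of 0.10.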
